A study of Mus musculus with 48 samples.

Results

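Levels of 9 genes of striatal cAMP and G-protein signalling were described in the nucleus accumbens shell of 48 mice: Gnal, Adcy5, Pde10a, Pde1b, Ppp1r1b, Arpp21, Rgs9, Rasd2 and Rasgrp2. The genes were chosen by name and not by a measured value, but earlier results of these data were known at that point. All 9 were found among the 37620 genes of the deposited table. They held 164 of its 247845 exons. The mice came from the heterogeneous stock-collaborative cross (HS-CC), an outbred mouse population, at selection generation 4 of selection for ethanol preference. The labels gave 4 groups of 12 mice: High ethanol preference females (High F), High males (High M), Low ethanol preference females (Low F) and Low males (Low M). Every mouse came from a selected line, none was an unselected control, and the labels state no age, family or ethanol exposure. The shell was cut out by laser microdissection, and libraries were made from poly(A)+ RNA with the TruSeq protocol. Each library stands for 1 labelled sample. With litter and cage unknown, a p-value measures the spread between these samples.

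As background, medium spiny neurons, the principal GABAergic cells of the striatum and accumbens, read dopamine and adenosine largely through cAMP. Those dopamine and adenosine receptors that raise cAMP act through the stimulatory G protein alpha subunit encoded by Gnal on the adenylyl cyclase encoded by Adcy5. The phosphodiesterases encoded by Pde10a and Pde1b break cyclic nucleotides down again, and protein kinase A passes the signal to substrates such as the products of Ppp1r1b and Arpp21. The products of Rgs9, Rasd2 and Rasgrp2 act on G proteins or small GTPases alongside this pathway.

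The deposited values are counts that the authors normalised and rounded to whole numbers, in units in which the columns of the 48 libraries summed to between 13579559 and 14561911. The depth before normalisation is not given in the sources used here, so no counting interval was attached. The markers listed as shared spiny neuron markers were abundant, with all 14 of 14 above 0 in every library and a summed level of 89026 to 124937. The list also holds Penk (mean 29982) and Tac1 (mean 13920), which mark indirect-pathway and direct-pathway spiny neurons. It holds the general GABAergic genes Gad1 and Gad2 as well. Pyramidal neuron markers summed to 920 to 2411 in 45 libraries and to 3582 to 6986 in the other 3 (2 High M and 1 Low M). In the line and co-variation comparisons, values without these 3 libraries are given beside the results. In bulk tissue, fewer cells of a type and less RNA per cell cannot be told apart.

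All 9 genes were strongly expressed. Their mean levels ran from 164.6 ppm of the column total for Rasgrp2 to 2020 ppm for Ppp1r1b, which ranked 17th of all genes by mean value. All 9 passed the filter on low values (1 ppm in at least 12 libraries), which 15350 genes passed. Divided by exon length (GENCODE M21 exon bases outside retained-intron transcripts), the order of levels per kb was Ppp1r1b (9973 ± 1271, SD over 48 mice), Pde1b (4046 ± 635), Adcy5 (1991 ± 289), Arpp21 (1979 ± 190), Rgs9 (1521 ± 281), Rasd2 (1413 ± 261), Gnal (1307 ± 116), Pde10a (1038 ± 204) and Rasgrp2 (515 ± 131). Adcy5 and Arpp21 did not differ beyond their spread, with Adcy5 higher in 22 of 48 mice (permutation test of the difference within each mouse, adjusted p = 0.971 over 8 neighbours). The other 7 neighbours differed, with the closest, Rasd2 over Gnal, higher in 32 of 48 mice (adjusted p = 0.0263). This order depended on the last exon. Without it, Gnal (214 ± 75.5 per kb), Rasd2 (261 ± 132) and Pde10a (274 ± 92.9) were the 3 lowest, and Arpp21 (2092 ± 211) stood above Adcy5 (1140 ± 333). Levels between genes are compared in this paragraph only. All other levels are deposited units per gene or exon.

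The comparison of the High and Low lines asks whether these genes differ between lines selected for ethanol preference. The labels give no replicate lines, so an effect of selection cannot be told apart from other differences between the lines. None of the 9 passed the test (limma, adjusted p under 0.05 over 15350 genes), against 0.28% of all genes tested. The line difference was below 0 for 7 of the 9, where 51.5% of all genes tested lay below 0, and the median over the 9 was -0.07 log2 against -0.0028 over all genes. At an unadjusted p under 0.05, 1 of the 9 passed (Rasd2), where 9.07% of all genes did.

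Gnal encodes Golf, the stimulatory alpha subunit that takes the place of Gs in striatal neurons. Gnal (ENSMUSG00000024524, mm9 chromosome 18, exon starts from 67247990 to 67382223) averaged 11139 ± 967 in High mice and 11053 ± 1016 in Low mice (SD, n = 24 each). Its values ran from 9031 to 13187, the narrowest relative spread of the 9 (coefficient of variation 8.85%), and the ranges of the 4 groups overlapped. Between the lines it differed by 0.01 log2 (95% interval -0.07 to 0.09, limma adjusted p = 0.963). Adcy5 encodes the main adenylyl cyclase of striatum. Adcy5 (ENSMUSG00000022840, chromosome 16, exon starts from 35154963 to 35303699) averaged 13931 ± 2169 in High and 13978 ± 1912 in Low mice, and 13 of 24 High mice lay below the Low median. Its highest and its lowest mouse were both High M, at 19931 and 10538. High minus Low came to -0.01 log2 (-0.13 to 0.11, limma adjusted p = 0.985).

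Pde10a encodes a dual cAMP and cGMP phosphodiesterase enriched in spiny neurons. Pde10a (ENSMUSG00000023868, chromosome 17, exon starts from 8718237 to 9174398) had lowest, median and highest values of 7918, 9929 and 13683 in High F, and 6714, 9392 and 11236 in High M. The values were 7389, 10429 and 13931 in Low F, and 6531, 9773 and 11968 in Low M. The highest mice of both lines were females, while the ranges of all 4 groups overlapped. High minus Low came to -0.01 log2 (-0.17 to 0.15, limma adjusted p = 0.986). Pde1b encodes a phosphodiesterase that calcium and calmodulin activate. Pde1b (ENSMUSG00000022489, chromosome 15, exon starts from 103333465 to 103359245) averaged 16979 ± 2457 in High and 17849 ± 2972 in Low mice, with 15 of 24 High mice below the Low median and a line difference of -0.07 log2 (-0.20 to 0.06, limma adjusted p = 0.815).

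Ppp1r1b encodes DARPP-32, which inhibits protein phosphatase 1 once protein kinase A has phosphorylated it. Ppp1r1b (ENSMUSG00000061718, chromosome 11, exon starts from 98209718 to 98218326) had lowest, median and highest values of 21322, 28347 and 33234 in High F and 22741, 27484 and 35073 in High M. They were 23413, 30209 and 35014 in Low F and 19811, 30198 and 33104 in Low M. The lower medians were those of the High groups, and 21 of 24 High mice lay below the Low median, yet the single lowest mouse was Low M and the single highest High M. The line difference of -0.07 log2 did not pass (-0.18 to 0.04, limma adjusted p = 0.762). Arpp21 encodes ARPP-21, a protein kinase A substrate that binds calmodulin. Arpp21 (ENSMUSG00000032503, chromosome 9, minus strand, exon starts from 111967595 to 112138154) averaged 19872 ± 1992 in High and 19849 ± 1849 in Low mice, and its line difference was 0.00 log2 (-0.09 to 0.09, limma adjusted p = 0.998).

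Rgs9 encodes a regulator that speeds GTP hydrolysis on inhibitory G proteins. Rgs9 (ENSMUSG00000020599, chromosome 11, minus strand, exon starts from 109086669 to 109159252) had lowest, median and highest values of 7043, 9876 and 11056 in High F and 5801, 9052 and 12065 in High M. They were 7960, 10035 and 13861 in Low F and 7169, 10746 and 12525 in Low M. The highest value of each Low group exceeded that of both High groups, and the ranges overlapped. The line difference was -0.14 log2 (-0.29 to 0.01, unadjusted p = 0.0613, limma adjusted p = 0.574), with 18 of 24 High mice below the Low median.

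Rasd2 encodes Rhes, a small GTPase of the striatum that dampens receptor signalling to cAMP. Rasd2 (ENSMUSG00000034472, chromosome 8, exon starts from 77737843 to 77745618) had lowest, median and highest values of 3557, 4234 and 5567 in High F and 2623, 4214 and 5488 in High M. They were 2985, 4972 and 6477 in Low F and 3281, 4628 and 5225 in Low M. In both genders the High median was the lower one, and 20 of 24 High mice lay below the Low median. The line difference was -0.15 log2 (-0.30 to -0.00085, unadjusted p = 0.0488), and it did not pass after adjustment over all genes (limma adjusted p = 0.545).

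Rasgrp2 encodes CalDAG-GEFI, an exchange factor that calcium and diacylglycerol switch on and that activates Rap GTPases. Rasgrp2 (ENSMUSG00000032946, chromosome 19, exon starts from 6399340 to 6414994) had lowest, median and highest values of 1677, 2061 and 3144 in High F and 1414, 2001 and 2934 in High M. They were 1781, 2309 and 3417 in Low F and 1731, 2308 and 4305 in Low M. It varied most of the 9 (coefficient of variation 25.5%, against a median of 11.7% over the 1267 genes with a mean at or above its own), and 1 Low M mouse stood at 4305. Its line difference was the widest of the 9 at -0.18 log2 (-0.38 to 0.01, unadjusted p = 0.0594, limma adjusted p = 0.570), with 16 of 24 High mice below the Low median. The mean log2 level of the oligodendrocyte markers, 15 of 15 detected, had a line difference of -0.19, which was not tested (summed level 10373 to 27225 in High and 14859 to 27399 in Low mice). With that level as a covariate the Rasgrp2 difference was -0.22 log2 (limma adjusted p = 0.332) and that of Rgs9 -0.17 (limma adjusted p = 0.332). Without the 3 libraries rich in pyramidal markers, the differences were -0.14 for Rasd2, -0.12 for Rgs9 and -0.16 for Rasgrp2. With the septal and diencephalic marker level as a covariate, they were -0.13, -0.10 and -0.13.

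**Figure D1:**
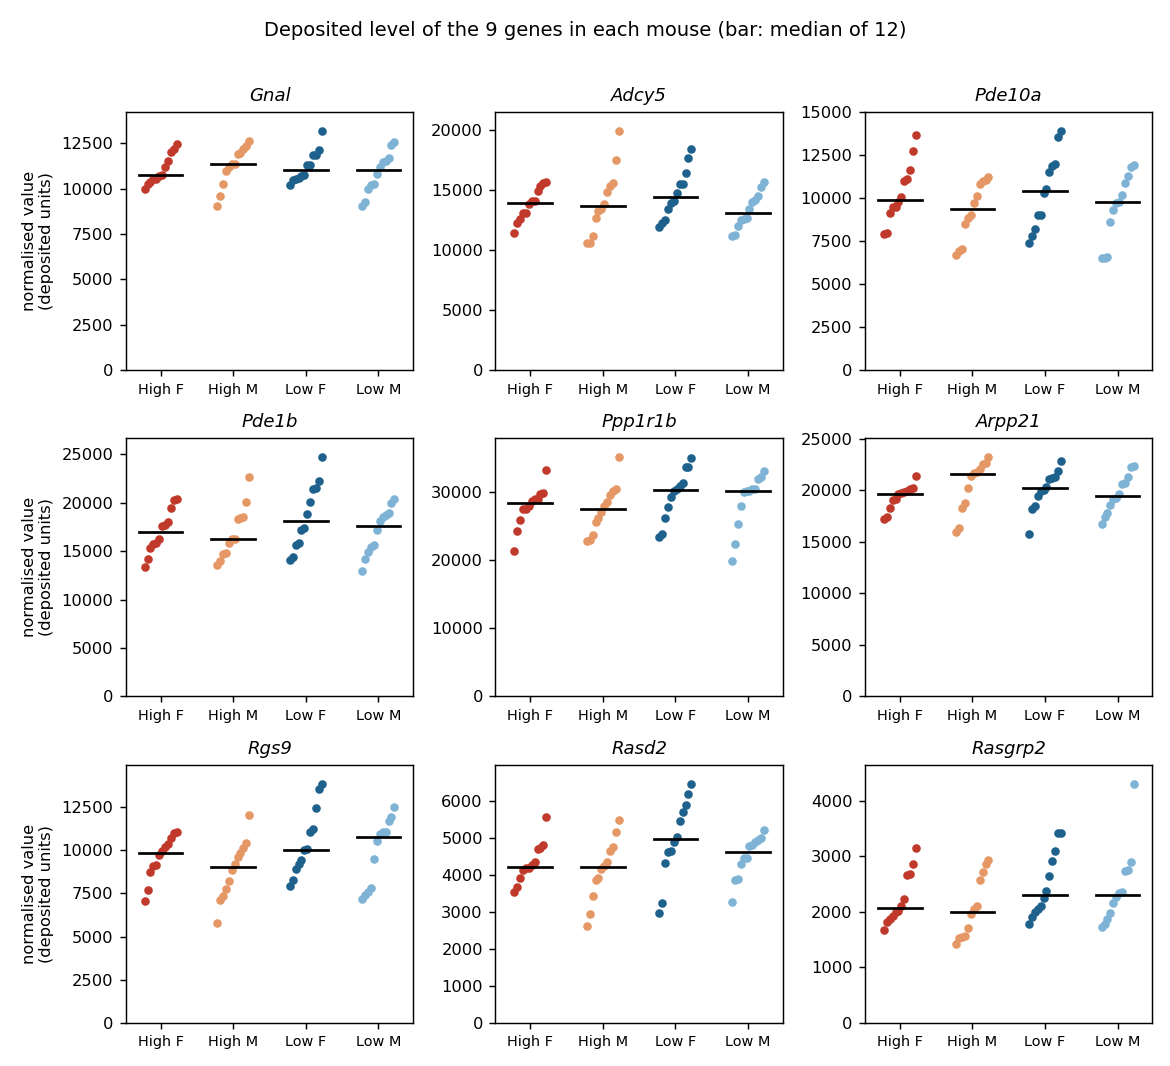
Deposited normalised value (y axis, linear from 0) of each gene in each of 48 mice, by group (x axis, 12 mice each, sorted within a group for display), with a bar at the group median. The groups overlap for all 9 genes. Ppp1r1b, Pde1b, Rgs9, Rasd2 and Rasgrp2 each have their 2 lower medians in the High groups, for Rasd2 at 4234 and 4214.

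Within females the line difference lay below 0 for 9 of the 9 genes (51.2% of all genes tested), and within males for 6 of the 9 (50% of all genes tested). None passed the test in either gender, where 0.0261% of genes passed in females and 0% in males. At an unadjusted p under 0.05 none of the 9 passed either, where 4.68% of genes did in females and 6.93% in males. The widest single differences were -0.17 log2 for Rasd2 in females and -0.23 log2 for Rasgrp2 in males (limma adjusted p = 1.00 and 0.773). The signs of Adcy5, Gnal and Arpp21 were opposite in the 2 genders, for Adcy5 -0.08 in females against 0.06 in males. The interaction of line and gender, which tests this difference, gave -0.15 log2 for Adcy5 (-0.38 to 0.09, limma adjusted p = 1.00) and passed for none of the 9, as for 0% of all genes. It lay below 0 for 6 of the 9 (50.9% of all genes tested) and passed unadjusted for 0 of the 9 (2.4% of all genes tested).

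Between the genders, 1 of the 9 genes lay below 0 in the female minus male difference (Arpp21), where 52.3% of all genes tested did. None passed (0.0782% of all genes tested passed), nor did any at an unadjusted p under 0.05 (4.21% of all genes tested). The widest was Pde10a, at 10382 ± 1949 in females and 9344 ± 1816 in males (SD, n = 24 each), a difference of 0.16 log2 (-0.01 to 0.32, unadjusted p = 0.0609, limma adjusted p = 0.982). Rasd2 and Rgs9 each differed by 0.10 log2 (limma adjusted p = 0.982 for both). The spread between mice did not pass as different between the lines for any of the 9 either (limma on the absolute deviation from the group median, adjusted p = 0.998 for each), where 0.0586% of genes passed, and 3.97% did unadjusted; Pde10a deviated by 0.21 log2 on average in High and 0.25 in Low mice.

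**Figure D2:**
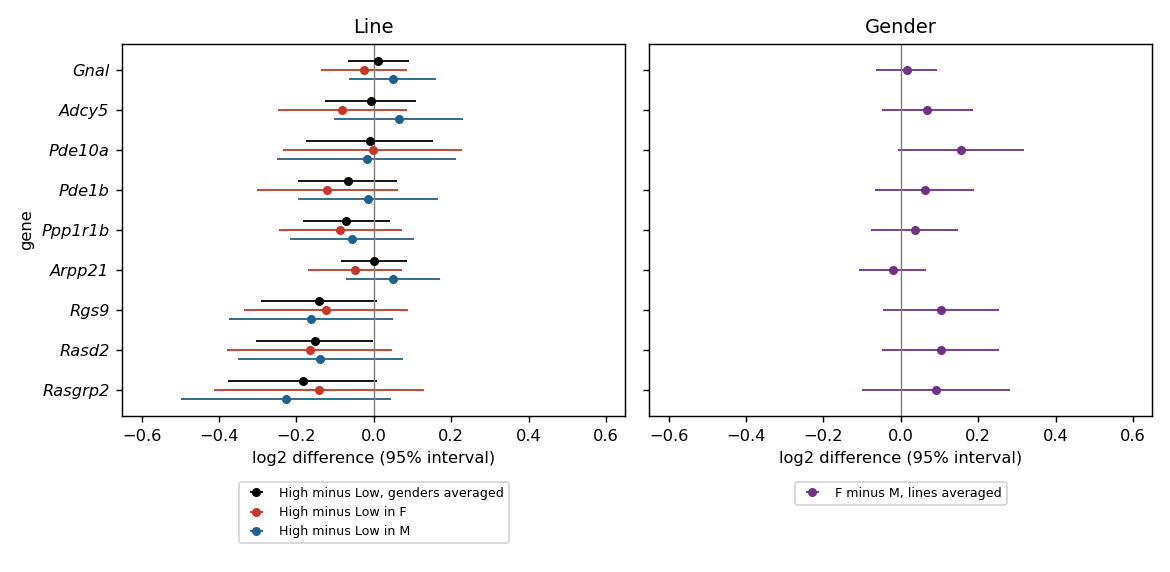
Log2 differences with 95% intervals for each gene: High minus Low averaged over the genders, in females and in males (left), and females minus males (right). The interval excludes 0 only for Rasd2 in the averaged line difference, at -0.15 log2, and that value did not pass adjustment over 15350 genes.

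The rest of the pathway was read from 9 lists with 140 genes tested, which share no gene with the 9 above. None of the 140 passed for line (0.28% of all genes tested did), gender (0.0782%) or their interaction (0%; limma, adjusted over all genes). At an unadjusted p under 0.05, which 9.07% of all genes tested met for line, the line counts were 0 of 8 adenylyl cyclases, 0 of 12 G protein alpha subunits, 0 of 13 beta and gamma subunits, 1 of 15 other phosphodiesterases, 2 of 19 protein kinase A subunits and anchoring proteins, 1 of 20 phosphatases and regulators, 1 of 16 other RGS proteins, 3 of 21 Ras and Rap switches and 1 of 16 receptors of spiny neurons. Median line differences of the lists ran from -0.03 log2 (cyclases) to 0.04 (Ras and Rap switches). The smallest p was that of Pkig, an inhibitor of protein kinase A, at 1264 ± 83.1 in High and 1352 ± 110 in Low mice (-0.09 log2, unadjusted p = 0.00519, limma adjusted p = 0.264). Its relative Pkia differed the other way, at 3157 ± 383 and 2915 ± 352 (0.11 log2, limma adjusted p = 0.451). Among the partners of the 9 genes, Gng7, the gamma subunit that pairs with Golf, averaged 14355 ± 1758 with a line difference of -0.07 log2 (adjusted p = 0.746). Gnas, the Gs alpha subunit, averaged 12284 ± 1619 (-0.02 log2, adjusted p = 0.962), and Rgs7bp, which anchors RGS9 at the membrane, averaged 2138 ± 466 (-0.17 log2, adjusted p = 0.553).

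Most of the 9 genes varied together between mice. With the group means removed, 24 of 36 pairs were correlated over 48 mice (permutation test, adjusted p under 0.05 over 36 pairs), all 24 of them positively, with r from 0.40 to 0.90 and Spearman's rho from 0.36. Without the 2 mice farthest from the median, r of these 24 pairs was 0.39 to 0.92. Over all 36 pairs the median r was 0.51. The pairs share library, tissue block and normalisation, and each gene's median r with 11853 other genes of at least 5 ppm was between -0.04 and 0.10. Of those other genes, 5% had an r above 0.43 (Rasd2) to 0.63 (Arpp21) with the gene. The smallest r that passed, 0.40, lies below all of these values. Passing alone therefore does not set a pair apart from pairs with other genes, whose share passing was not computed.

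The cyclase and the 2 phosphodiesterases were the tightest group. Adcy5 and Pde1b had r = 0.90 (rho = 0.93, r = 0.92 without the 2 farthest mice), Pde10a and Pde1b r = 0.82 (rho = 0.83, 0.80 without them) and Adcy5 and Pde10a r = 0.78 (rho = 0.80, 0.78 without them), each with permutation adjusted p = 3.6e-05, from the smallest p that the permutations can give. Rgs9 and Rasgrp2 formed a close pair (r = 0.72, rho = 0.72, 0.70 without the 2 farthest mice, adjusted p = 3.6e-05), and Ppp1r1b had its highest Pearson r with Rasd2 (r = 0.67, rho = 0.58, 0.68 without them, adjusted p = 3.6e-05), although by rank it was closer to Rgs9 (rho = 0.67, r = 0.62). Each of the 21 pairs among the 7 genes other than Gnal and Arpp21 passed.

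Gnal and Arpp21 stood apart. They were correlated with each other (r = 0.71, rho = 0.66, 0.64 without the 2 farthest mice, permutation adjusted p = 3.6e-05), while Gnal passed with none of the other 7 and Arpp21 with 2 of them, Rasd2 (r = 0.49) and Ppp1r1b (r = 0.40). The lowest r was that of Gnal with Rasgrp2 (r = -0.18, rho = -0.22, permutation adjusted p = 0.277). Mean r with the other 8 genes was 0.17 for Gnal and 0.29 for Arpp21, against 0.39 to 0.57 for the rest. Within the High line alone 14 pairs passed and within the Low line 23, over 24 mice each; the difference between the lines was not tested. Without the 3 libraries rich in pyramidal markers, 24 pairs passed.

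**Figure D3:**
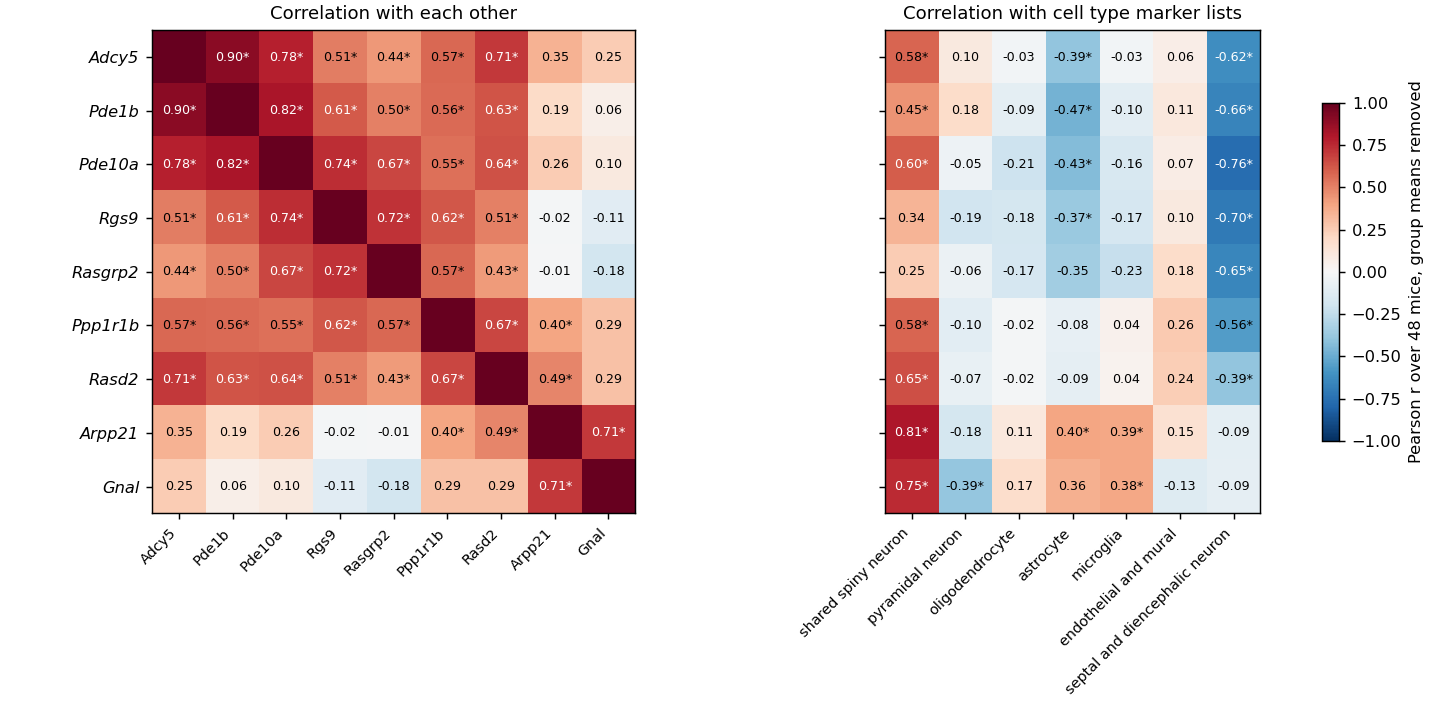
Pearson r over 48 mice with group means removed (colour and number), between the 9 genes (left) and of each gene with the mean log2 level of 7 marker lists (right); a star marks an adjusted p under 0.05. Adcy5 and Pde1b reach 0.90, and Gnal and Arpp21 pair with each other at 0.71 and with the spiny neuron markers at 0.75 and 0.81.

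Marker levels of the dissected tissue moved with the genes. Of 63 pairs of a gene with a marker list, 10 were positive and 12 negative at an adjusted p under 0.05 (permutation test, adjusted over 63). The share of all genes that would pass with each list was not computed. The counts below therefore cannot be called particular to the 9 genes. The shared spiny neuron markers rose with 7 of the 9 genes, most closely with Arpp21 (r = 0.81) and Gnal (r = 0.75), and did not pass for Rgs9 (r = 0.34) and Rasgrp2 (r = 0.25). Markers listed as septal and diencephalic neuron (9 listed, 8 above 0 in every library, Slc17a6 between 0 and 23) went the other way in 7 of the 9 genes. Their r ran from -0.76 for Pde10a and -0.70 for Rgs9 to -0.39 for Rasd2, and did not pass for Gnal and Arpp21 (r = -0.09 for both). The list was Zic1, Tcf7l2, Slc17a6, Lhx2, Calb2, Prkcd, Trpc4, Lhx6 and Nxph1. Calb2 (mean 288), Lhx6 (237) and Nxph1 (229) are also genes of accumbens interneurons, so which cells gave this level is not known. The summed level of the list was 1339 to 1986 and overlapped between the groups. Astrocyte markers fell with rising Adcy5, Pde10a, Pde1b and Rgs9 (r = -0.37 to -0.47) and rose with Arpp21 (r = 0.40); their summed level was 28089 to 45454. Microglial markers passed with Gnal (r = 0.38) and Arpp21 (r = 0.39), at a summed level of 4633 to 7077, and pyramidal markers with Gnal (r = -0.39; -0.22, no longer passing, without the 3 libraries rich in them). No pair passed for oligodendrocyte or vascular markers. With the septal and diencephalic level removed from every gene, 17 of the 36 pairs passed, Adcy5 and Pde1b had r = 0.83, and Adcy5 with Rgs9 dropped to 0.14.

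A measure of where reads fell in transcripts moved with some of the genes as well. The last exons of other genes held 44.9% to 58.4% of the exon values of their genes in each library, with means of 53.2% in High and 52.8% in Low mice. Adcy5 (r = -0.74, rho = -0.73, r = -0.75 without the 2 farthest mice) and Pde1b (r = -0.71, rho = -0.68, -0.69 without them) were lower where that share was higher, each with permutation adjusted p = 4.5e-05 over the 9 genes. Rasd2 (r = -0.44), Pde10a (r = -0.38) and Ppp1r1b (r = -0.37) followed with adjusted p of 0.00906, 0.0199 and 0.0235, while Gnal, Arpp21, Rgs9 and Rasgrp2 did not pass (r = -0.05 to -0.27). How many of all genes would pass with the last-exon share was not computed, so these relations cannot be called particular to the 9. With this share removed from every gene 24 pairs passed, and Adcy5 and Pde1b had r = 0.79.

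**Figure D4:**
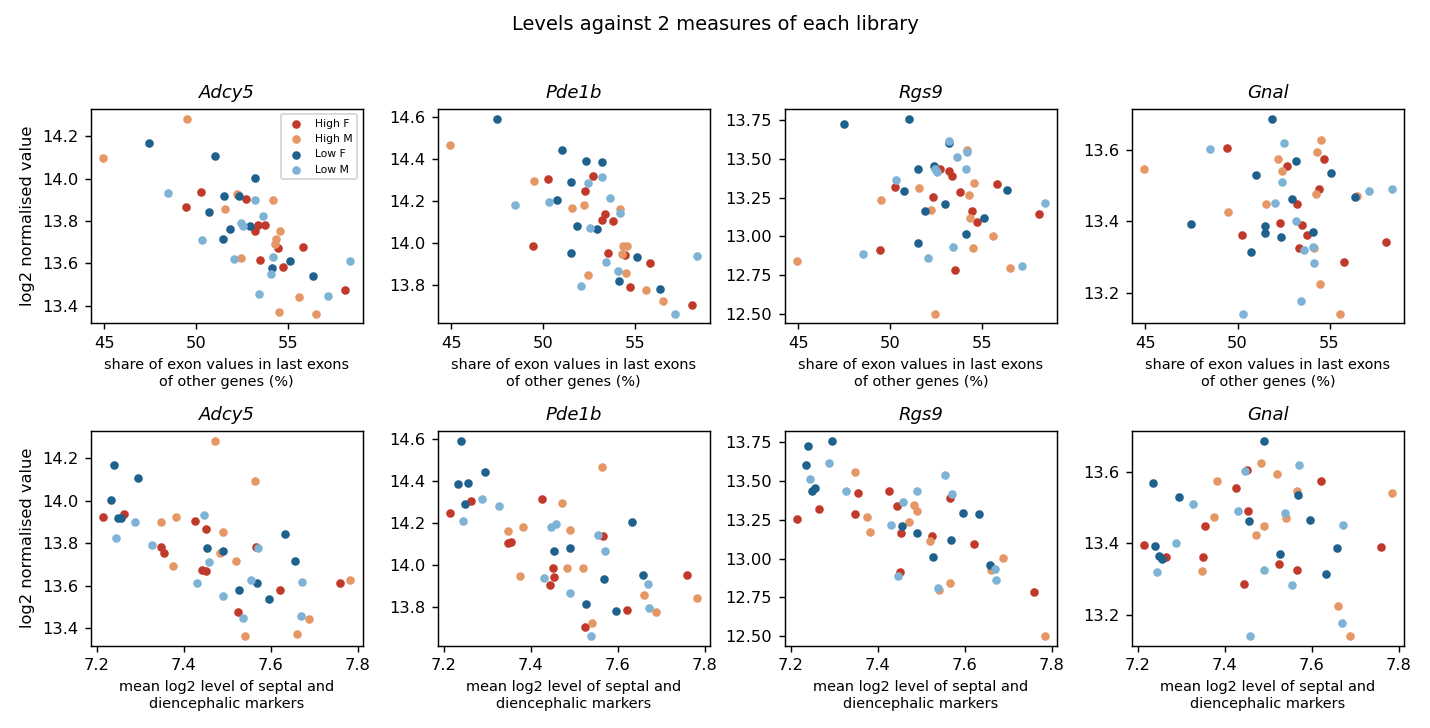
Log2 deposited value of 4 genes (y axis) against the share of exon values in last exons of other genes (top, %) and the mean log2 level of septal and diencephalic markers (bottom), 1 point per mouse coloured by group. Adcy5 and Pde1b fall with the last-exon share (r = -0.74 and -0.71), Rgs9 falls with the marker level (r = -0.70), and Gnal follows neither.

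The genes outside the 9 that were most alike in pattern over the 48 mice were named by the highest r among genes of at least 5 ppm, up to 3 for each. For Adcy5 these were Camk2b (r = 0.90), Atp2b2 (0.87) and Baiap2 (0.87), for Pde1b Atp2b2 (0.88), Bcr (0.87) and Tln2 (0.86), and for Pde10a Atp2b2 (0.87), Npas2 (0.80) and Lmo7 (0.79). For Rgs9 they were Tbc1d8 (0.76), Inf2 (0.76) and 2010300C02Rik (0.73), for Rasgrp2 Acy1 (0.77) and Car11 (0.77), and for Rasd2 Scn4b (0.78), St8sia3os (0.77) and Ppp1cc (0.75). Arpp21 was most like Alcam (0.87), Mpped2 (0.85) and Spock3 (0.83), and Gnal was most like Fundc2 (0.79), Mmgt1 (0.79) and Gad2 (0.78), which encodes a GABA-synthesising enzyme. These were picked as the highest values and are descriptions. Ppp1r1b was most like 1700003D09Rik (0.92), Klc1 (0.84) and Kcnj4 (0.83). The first of these lies on the opposite strand and overlaps 460 bases of Ppp1r1b exons in GENCODE M21, in exons that held 22.5% of the Ppp1r1b values, and averaged 4470 ± 787. Mppe1 overlaps the last exon of Gnal in the same way by 852 bases (mean 1780 ± 154, r = 0.76). The strand setting of the counting is not given in the sources used here, so reads of these overlapping pairs cannot be told apart, and the same holds for Arpp21 with 2900079G21Rik and Rasgrp2 with Gm14965.

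Exon by exon, none of 150 tested exons of the 9 genes differed between the lines (limma, adjusted p under 0.05 over 148532 exons, where 0.00875% passed) or between the genders (0.0646% passed). At an unadjusted p under 0.05, 13 of the 150 passed for line, where 4.91% of all exons did, and 4 of the 150 for gender, where 3.37% did. The smallest adjusted p was 0.902, in Rasgrp2. Exon usage, which asks whether an exon moves against the rest of its gene, differed by line for none of the 9 (limma diffSplice with a Simes p per gene, 0.51% of genes passed), with the smallest adjusted p at 0.812 for Arpp21, the 1 gene of the 9 under 0.05 before adjustment (5.32% of genes were). With each exon weighted by its precision, the smallest was 0.996 (0.0476% of genes passed). In the 4 genes with an exon at an unadjusted usage p under 0.05, the exon with the smallest p was weakly expressed: exon 12 of Arpp21 at 10.0 ± 5.07 in High and 15.5 ± 9.65 in Low mice, exon 14 of Rgs9 at 1.71 ± 1.85 and 2.79 ± 2.43, exon 6 of Ppp1r1b at 16.0 ± 8.91 and 22.8 ± 13.6, and exon 9 of Rasgrp2 at 3.46 ± 2.99 and 5.04 ± 3.78. A further weak exon of Arpp21, exon 23, had a usage p close to that of exon 12 and differed the other way, at 6.17 ± 3.31 in High and 4.13 ± 1.51 in Low mice (unadjusted p = 0.00214 against 0.00200, limma diffSplice adjusted p = 0.677 and 0.663).

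The genes differed in where along the transcript their values lay. The last exon held 95.6% of the values of Rasd2, 91.8% of Gnal and 88.0% of Pde10a, where the median over other genes was 55.2%. It held 61.5% for Pde1b, 60.8% for Adcy5 and 56.3% for Ppp1r1b. In Gnal the last exon is 4224 bases long and averaged 10181 ± 878, while exons 2 to 13 averaged 40.2 to 132. In Rgs9 the values were split over the final 2 exons, of which the last averaged 2968 ± 620 (30.6%). Exon 19 lies in 3 annotated coding transcripts, of which Rgs9-204 ends there, while the coding transcript Rgs9-203 ends earlier, at exon 10. This exon 19 reached 10.2% of the level of exons 20 and 21 together (10.1% ± 2.18 in High and 10.3% ± 1.85 in Low mice, SD, n = 24 each, permutation test, adjusted p = 0.937). As background, Rgs9 is known for a short form in retina and a long form in striatum that differ at their ends. Per 100 bases of exon, the highest exon was the last one in Gnal, Pde10a, Pde1b, Rasd2 and Rgs9, and a short inner one in Ppp1r1b (exon 3, 23 bases, 1074 ± 232), Adcy5, Arpp21 and Rasgrp2.

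Arpp21 had the reverse pattern. Its last exon, 35, held 4.14% of the gene's values (812 ± 94.6), while exon 18, where the short transcripts Arpp21-230 and Arpp21-231 end, held 75.8% (15040 ± 1467). Exons 19 to 35 together, which only longer transcripts contain, reached 12.9% of the level of exon 18, with 13.0% ± 2.30 in High and 12.9% ± 1.76 in Low mice (SD, n = 24 each, permutation test, adjusted p = 0.937), and ran from 9.06% to 17.9% over the mice. As background, the gene is known to give the short protein ARPP-21 in striatum and longer proteins elsewhere. The correlation of Arpp21 with Gnal was found for exon 18 (r = 0.69, rho = 0.67, 0.68 without the 2 farthest mice, permutation adjusted p = 0.000107 over 32 relations) and did not pass for exons 19 to 35 (r = -0.24, rho = -0.22, -0.16 without them, adjusted p = 0.273). The same held for the spiny neuron markers (r = 0.75, rho = 0.70, 0.67 without them, adjusted p = 0.000107, and r = -0.05, rho = 0.04, -0.0020 without them, adjusted p = 0.890). Exon 18 holds most of the gene's values and had r = 0.95 with the whole gene, so its relations largely repeat those of the gene. Among the 9 genes, exons 19 to 35 came under 0.05 with Pde1b only (r = 0.35, rho = 0.34, 0.24 without the 2 farthest mice, permutation adjusted p = 0.04997). The 32 relations include those of each end with the whole Arpp21 gene, and that of exon 18 was bound to pass. The Pde1b value lies at the threshold under this adjustment and is not read as a relation. The difference between the correlations of the short and the long end was not tested, and both ends were chosen for this comparison after the exon values were seen.

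**Figure D5:**
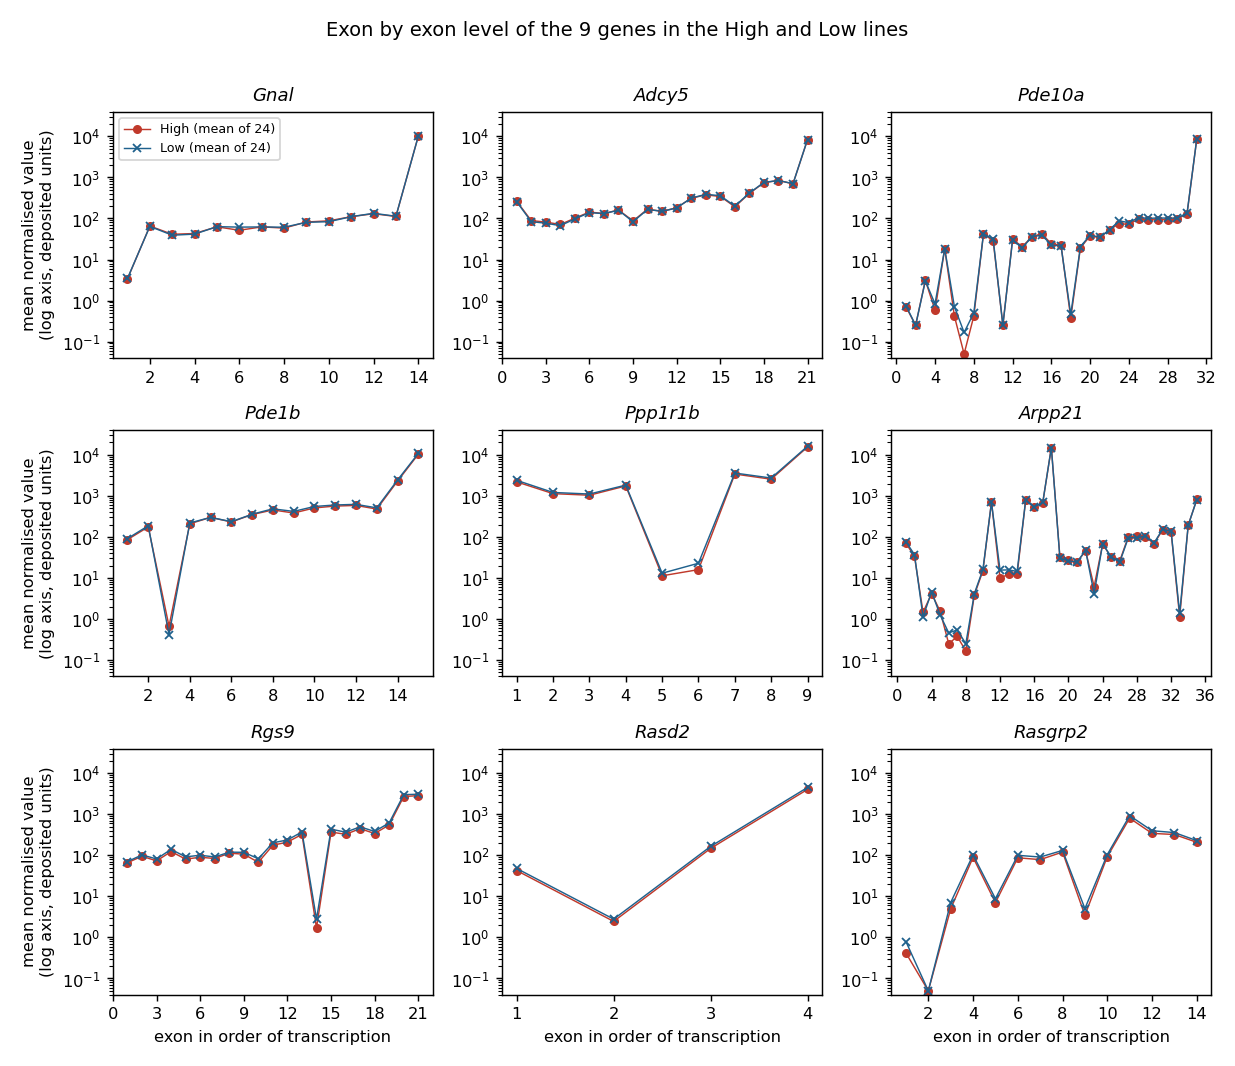
Mean deposited value of each exon (y axis, log scale; means under 0.05 are drawn at 0.05) in order of transcription (x axis) in 24 High and 24 Low mice. No exon passed the line test; Gnal, Pde10a and Rasd2 peak at the last exon, and Arpp21 peaks at exon 18.

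First exons differed widely in level. Pde10a has 7 first exons among the deposited ones. Exon 5, the first of transcript Pde10a-202, averaged 18.3 ± 8.56, while the other 6 averaged 0.104 to 0.729. Of the 11 exons before exon 12 in Arpp21, exon 11, where the short transcripts start, averaged 702 ± 184, against 73.2 ± 14.5 for exon 1 and 35.3 ± 12.6 for exon 2. The sequences upstream of these starts are shown because the first exons of 1 gene separate into a high one and near-empty ones. The starts of Adcy5, Pde1b and Rgs9 are shown as examples of the genes that moved together between mice. Each is the 250 bases before a RefSeq start on GRCm38.p6, written 5′ to 3′ on the gene's strand, and the exon values come from the nearest exon by order and spacing. The motifs searched, 4 in all, were read on both strands and stand in capitals, so that a GC box on the opposite strand shows as its reverse complement. The core of the cAMP response element (CRE), TGACG, was held by 17.8% of 32851 RefSeq windows of the same length. The full CRE, TGACGTCA, which contains that core, was held by 1.55% of these windows. The TATA box, TATAAA, was held by 12.4% of them. The GC box, GGGCGG, was held by 32.7% of them.
Adcy5, first exon, chr16:35154614-35154863, plus strand: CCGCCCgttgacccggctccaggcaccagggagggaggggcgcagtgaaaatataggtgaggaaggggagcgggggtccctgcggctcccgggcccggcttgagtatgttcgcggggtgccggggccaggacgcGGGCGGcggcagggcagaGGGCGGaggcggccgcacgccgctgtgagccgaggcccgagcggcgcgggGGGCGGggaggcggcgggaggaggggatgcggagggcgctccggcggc
Pde1b, first exon, chr15:103502784-103503033, plus strand: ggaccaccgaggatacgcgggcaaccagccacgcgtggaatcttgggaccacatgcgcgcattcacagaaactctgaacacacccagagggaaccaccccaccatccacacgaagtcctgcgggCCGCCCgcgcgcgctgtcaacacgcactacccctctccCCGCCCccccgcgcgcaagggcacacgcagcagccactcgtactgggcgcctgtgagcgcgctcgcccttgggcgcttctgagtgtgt
Pde10a, exon 5 start, chr17:8801495-8801744, plus strand: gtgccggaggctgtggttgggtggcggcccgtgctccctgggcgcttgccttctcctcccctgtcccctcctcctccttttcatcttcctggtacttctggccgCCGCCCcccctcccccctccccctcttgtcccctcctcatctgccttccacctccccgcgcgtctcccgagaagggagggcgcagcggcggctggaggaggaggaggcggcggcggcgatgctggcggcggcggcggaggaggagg
Pde10a, exon 6 start, chr17:8849735-8849984, plus strand: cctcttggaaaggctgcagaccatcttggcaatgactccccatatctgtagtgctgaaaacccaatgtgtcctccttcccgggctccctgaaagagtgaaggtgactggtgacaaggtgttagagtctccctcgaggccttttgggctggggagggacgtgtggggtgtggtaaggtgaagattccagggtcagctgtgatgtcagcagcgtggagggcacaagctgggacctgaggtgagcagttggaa
Rgs9, first exon, chr11:109298182-109298431, minus strand: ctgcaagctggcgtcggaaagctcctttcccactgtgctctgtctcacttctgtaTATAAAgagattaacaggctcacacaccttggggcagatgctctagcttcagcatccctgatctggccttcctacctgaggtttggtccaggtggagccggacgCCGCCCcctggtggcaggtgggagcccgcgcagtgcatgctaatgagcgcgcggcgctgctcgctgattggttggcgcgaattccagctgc
Arpp21, exon 11 start, chr9:112187767-112188016, minus strand: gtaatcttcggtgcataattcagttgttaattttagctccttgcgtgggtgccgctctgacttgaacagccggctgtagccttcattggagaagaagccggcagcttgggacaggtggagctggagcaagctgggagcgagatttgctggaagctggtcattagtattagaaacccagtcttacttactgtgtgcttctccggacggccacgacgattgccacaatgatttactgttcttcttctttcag

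The window of Adcy5 held 4 GC boxes, that of Pde1b 2, that of the Pde10a start at exon 5 1 and that of Rgs9 1 together with a match to TATAAA. This match lies in the part of the window far from the start, and its use as a TATA box was not tested. The window of the Pde10a start at exon 6, where the exon averaged 0.562 ± 0.769, and that of the printed Arpp21 start held none of the 4 motifs. The GC content was 78.0% for Adcy5, 72.8% for the Pde10a start at exon 5, 56.0% for the Pde10a start at exon 6 and 49.6% for the printed Arpp21 start. No window of these 6 held TGACG. Further Arpp21 starts are not printed. Those in exon 11 lie inside the printed window, and their own windows held none of the 4 motifs at a GC content of 37.2%. The windows of a start in exon 7 (mean 0.458) and of one in exon 14 (mean 13.4) each held 1 TGACG. Rasd2 and Rasgrp2, which also moved with these genes, have windows that are not printed. That of Rasd2 (GC content 75.2%) held none of the 4 motifs, and those of Rasgrp2 held 5 and 2 GC boxes. No relation of a motif to the co-variation was tested. The RefSeq table matched 7 of the 9 genes.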

How the data were processed

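Messenger RNA of 48 accumbens shell samples was read from a gene table and an exon table that hold a column for each library. Values in both are a score: deposited after normalisation of counts by the authors and rounding to whole numbers, per the table names and the values. Per the submitters' processing notes edgeR 3.4.2, R 3.0.2, STAR 2.4.0, FastQC and CASAVA were used, in roles not stated, on mm9; counter, strand setting and annotation are not given in the sources used here. Because the values are not raw counts, no count model was fitted. The 9 genes, the gene lists and the tests were chosen with earlier results of these data known. Tests used limma 3.58.1 under R 4.3.3 (trend, 4 group means, 44 residual degrees of freedom) on log2(value + 0.5 ppm), where 1 ppm was 14.06 deposited units, over the 15350 genes that reached 1 ppm in 12 or more libraries; log2 differences are on that scale. Exons used a pseudocount of 0.05 ppm and a filter of 0.1 ppm, with diffSplice for usage. Correlations and levels per kb used 100000 permutations, with Benjamini-Hochberg adjustment. On simulated data the gene fit recovered 65.7%, 82.1% and 97.0% of changed genes at log2 changes of 0.3, 0.5 and 1 with 5 false calls; the usage test made 221 false calls among 14485 genes, and 29 with exon precision weights, which were added for that reason. Symbols and exon lengths came from GENCODE M21 (GRCm38) by gene identifier and by the spacing of exon starts, which matched 162 of 164 exons; no coordinate was converted. Another definition of exon length was tried first; bases outside retained-intron transcripts were used. Chosen after the values were seen were this definition, the ratios between exons, the split of Arpp21, the last-exon share, its use and that of the septal and diencephalic markers as covariates, the promoters and the motifs. The named genes were all 9, per pathway list the 2 with the smallest line p and the highest per kb (of which a part is printed), per gene the 3 most alike in pattern (some of the named genes are not reported here), and per gene the highest exon and the one with the smallest usage p. Alternatives were other pseudocounts, filters, scalings, library weights, marker covariates, libraries left out, and a single line.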

Additional observations from a re-analysis of the deposited data

How the results depend on the processing

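For the 9 genes, no alternative brought a line, gender or interaction difference past the threshold, and what depth adds to the error is unknown, since the deposited totals are already normalised. The number of genes called by line, 43, became 80 with library weights, 66 with the oligodendrocyte covariate and 77 with the last-exon share as covariate. In females the 4 calls became 2 without a filter on low values, 7 with library weights and 2 with the last-exon share as covariate. Calls of variability rose to 28 about the group mean. With an exon filter of 1 ppm the exons called by gender fell to 47 and the genes called for exon usage to 20; usage calls were 31 with a pseudocount of 0.5 ppm and 7 with exon precision weights. Co-varying pairs numbered 14 in the High line alone. The cause was not tested in any of these cases.

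Differences near 0 changed sign, and none of these had passed. The line difference of Arpp21 was -0.00151 with median-of-ratios rescaling, -0.00134 with library weights, -0.00289 with the pyramidal covariate and -0.000558 without the 3 libraries rich in pyramidal markers. With the last-exon share as covariate, the line difference was 0.011 for Adcy5 and 0.00383 for Pde10a, and 0.045 for Pde10a in females, and the interaction was 0.012 for Ppp1r1b and 0.043 for Rasd2. With the septal and diencephalic covariate, the line difference was 0.022 for Adcy5 and 0.041 for Pde10a, 0.025 for Pde10a in females, 0.057 for Pde10a and 0.036 for Pde1b in males; the interaction was -0.032 for Pde10a and -0.0026 for Rgs9, and the gender difference -0.0058 for Ppp1r1b. The interaction was -0.010 for Rasgrp2 with library weights and -0.023 for Pde10a with the oligodendrocyte covariate. Without the 3 libraries it was -0.000461 for Pde10a and -0.00523 for Rgs9, and the gender difference was -0.0067 for Gnal. The line difference in variability of Arpp21 was 0.00453 about the group mean.

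In the order per kb without the last exon, Adcy5 over Arpp21 was -0.92, Gnal over Pde10a -0.36 and Pde10a over Rasgrp2 -0.88 log2; with expressed exons only, Adcy5 over Arpp21 was -0.11. The Pearson r of Arpp21 and Rasgrp2 was 0.0064 by rank, 0.039 without the 3 libraries and 0.11 in the High line, where Rgs9 and Arpp21 had 0.0081. The r of Gnal and Pde1b was -0.040 with the last-exon share removed and -0.050 in the Low line, and that of Pde1b and Arpp21 -0.00038 with the share removed. By rank, the r with markers was 0.047 for Pde10a (pyramidal) and -0.053 for Rasd2 (microglia). Without the 3 libraries it was 0.0020 for Ppp1r1b (pyramidal), 0.022 for Ppp1r1b and 0.0043 for Rasd2 (oligodendrocyte), and 0.063 for Arpp21 (pyramidal). No paired analysis was possible because the labels gave the mice of different groups no shared number.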
